A study of Homo sapiens with 18 samples.

Results

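The genes described here encode 10 histone lysine demethylases of the Jumonji C (JmjC) class: KDM2A, KDM2B, KDM3A, KDM3B, KDM4A, KDM4B, KDM4C, KDM5A, KDM5B and KDM6B. They were picked by gene symbol, with no threshold on their values but with earlier results of these data known, and each of the 10 was found among the 28277 genes of the count table. The RNA-seq libraries came from OVCAR3-KRAB cells, an established human ovarian cancer line that stably carries dCas9-KRAB, a nuclease-dead Cas9 fused to a repressor domain. All groups share this repressor and differ in the single guide RNA, which was sgCtl (a negative control guide against the Gal4 promoter), sgXIST7 or sgXIST9 (both against the XIST promoter). The study describes the sequenced cells as clonal, and how many clones stand behind each guide is not given in the sources used here, so an effect of a guide and of its clonal cells cannot be told apart. Cells with each guide were sampled in normoxia and after 24 h of hypoxia (1% oxygen), with 3 replicates each, which makes 6 groups and 18 libraries. The study calls the replicates biological, while the labels do not say whether they were separate cultures, and p-values measure the spread between these libraries.

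JmjC demethylases are dioxygenases. They take molecular oxygen, iron and 2-oxoglutarate to hydroxylate a methyl group on a histone lysine, which is then lost, and several of them are known as targets of the hypoxia-inducible factors (HIF) as well as enzymes that slow down when oxygen is short. KDM2A and KDM2B act on H3K36, KDM3A and KDM3B on H3K9, the KDM4 enzymes on H3K9 and H3K36, KDM5A and KDM5B on H3K4, and KDM6B on H3K27. RNA-seq measures their transcripts and not the enzyme activity or the histone marks.

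The libraries held between 11794375 and 24906936 counts, and levels are given as CPM, the count scaled to the size of its library. In each oxygen condition, 6 of 6 libraries labelled with an sgXIST guide had less of the targeted transcript than each sgCtl library. Replicate 3 stood apart in hypoxia in sgCtl and sgXIST9, with a correlation of log2 CPM to replicates 1 and 2 of 0.964 and 0.953 in sgCtl and of 0.98 and 0.967 in sgXIST9, against 0.984 to 0.993 within the normoxia groups. In sgXIST7 in hypoxia the correlation was lowest between replicates 1 and 3, at 0.975, against 0.987 between 1 and 2 and 0.984 between 2 and 3. The small noncoding RNA RN7SL1 took 3.0% to 4.99% of the counts in normoxia and 5.05% to 8.13% in hypoxia. Among ovarian or epithelial markers, EPCAM (at least 1787 counts) and KRT18 (at least 1461) were present in each library, whereas MUC16, KRT7 and CDH1 had at most 4 counts in any library. Of the others on that list, WT1 had 0 to 14 counts per library, MSLN 0 to 16 and ESR1 0 to 70. PAX8 had 18 to 131 and KRT8 56 to 779. The summed level of 4 leukocyte and of 4 endothelial markers was at most 0.684 CPM. The summed level of 6 fibroblast markers was 1.16 to 1.61 CPM in sgCtl, 69.9 to 122 CPM in sgXIST7 and 33.5 to 61.1 CPM in sgXIST9 in normoxia, and 1.38 to 3.72, 127 to 309 and 37.1 to 73.8 CPM in hypoxia. COL1A2 reached 306 CPM.

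Hypoxia raised the transcripts of most of these demethylases. A gene is said to have risen or fallen at a Benjamini-Hochberg adjusted p under 0.01 in the quasi-likelihood test of edgeR, which was fitted to the 14938 genes with enough counts, and each of the 10 genes was among them. In sgCtl, 8 of the 10 genes rose and 0 fell, where 18.8% of all tested genes rose and 18.8% fell. In sgXIST7, 9 rose and 0 fell, against 23.5% and 23.2% of all genes, and in sgXIST9, 8 rose and 0 fell, against 23.1% and 19% of all genes. With the additional threshold of the study, a log2 fold change above 1, the numbers were 6, 7 and 6, where 11.3%, 15.1% and 14.7% of all genes were higher by the same criteria. Their median on the log2 scale was 1.21 in sgCtl, 1.21 in sgXIST7 and 1.19 in sgXIST9, and that of all tested genes was 0.02, 0.01 and 0.09. KDM2A, KDM3A, KDM4A, KDM4B, KDM4C, KDM5A, KDM5B and KDM6B rose with each of the 3 guides, and for these 8 the hypoxia libraries of a guide did not overlap its normoxia libraries. Without replicate 3 of all groups, the numbers that rose were 6, 8 and 7. In bulk RNA, a change within each cell and a change in the mixture of cells cannot be told apart.

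**Figure D1:**
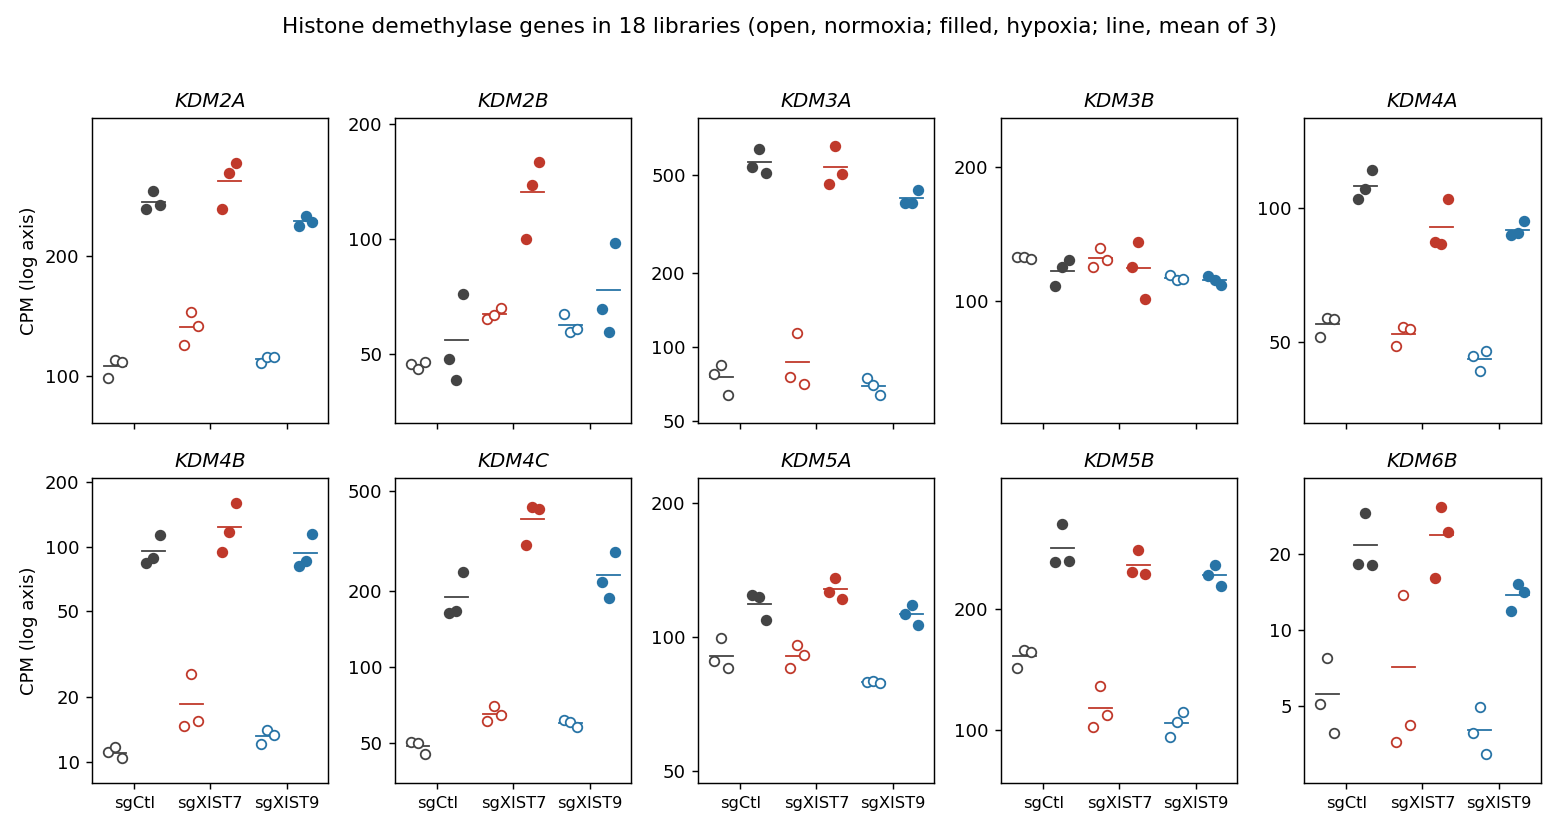
CPM (TMM-normalised, log axis) of each gene in each of the 18 libraries. Open circles are normoxia, filled circles hypoxia, columns are the guides and lines are means of 3 libraries. Filled circles lie above the open circles of their guide for 8 genes, while those of KDM3B do not and those of KDM2B do so without overlap in sgXIST7 only.

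Since HIF binds a short core sequence, the promoters of the 10 genes are shown by their core matches. RefSeq promoters on GRCh38.p14, 250 bases before to 50 after an annotated start, were available for all 10 genes, 16 promoters in total. They were searched on both strands for the first core ACGTG and the second core GCGTG, where the first core also lies in the palindrome CACGTG and is then matched on both strands. At least 1 core was found in 13 promoters of 9 genes, and the first core in 3 promoters, 1 each of KDM2B, KDM4B and KDM4C. Of all 35116 promoters in the table, 48.4% hold a core of either kind, 21.4% the first core and 7.26% the palindrome. Of the promoters of tested genes, 60% hold a core of either kind and 25% the first core. These shares count promoters and not genes. A match is a match of letters, and no binding was measured. The promoters of the 3 genes with the largest responses in sgXIST7 (KDM4B, KDM3A and KDM4C) and of KDM3B, which did not pass the test with any guide, read as follows from 5′ to 3′ on the strand of the gene, with core matches in capitals (a match on the other strand reads CACGT or CACGC).
KDM4B, chr19:4968863-4969162, plus strand: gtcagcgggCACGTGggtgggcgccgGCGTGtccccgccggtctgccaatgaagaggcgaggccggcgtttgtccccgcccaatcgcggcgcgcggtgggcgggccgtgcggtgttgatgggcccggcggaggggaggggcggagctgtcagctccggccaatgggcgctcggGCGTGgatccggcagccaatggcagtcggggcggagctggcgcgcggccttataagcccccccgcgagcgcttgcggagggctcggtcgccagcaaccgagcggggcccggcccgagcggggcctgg
KDM3A, chr2:86441121-86441420, plus strand: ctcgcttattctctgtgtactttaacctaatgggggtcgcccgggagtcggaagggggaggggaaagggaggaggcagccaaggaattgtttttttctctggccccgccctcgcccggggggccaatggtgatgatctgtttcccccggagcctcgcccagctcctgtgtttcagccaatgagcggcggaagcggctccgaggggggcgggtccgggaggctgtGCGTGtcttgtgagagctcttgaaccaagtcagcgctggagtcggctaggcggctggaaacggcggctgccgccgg
KDM4C, chr9:6757723-6758022, plus strand: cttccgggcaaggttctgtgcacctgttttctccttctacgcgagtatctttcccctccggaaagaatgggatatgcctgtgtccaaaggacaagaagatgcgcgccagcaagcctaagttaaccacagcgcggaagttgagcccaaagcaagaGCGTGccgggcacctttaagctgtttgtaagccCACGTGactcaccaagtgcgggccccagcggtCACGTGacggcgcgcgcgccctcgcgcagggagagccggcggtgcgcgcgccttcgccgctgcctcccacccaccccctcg
KDM3B, chr5:138352435-138352734, plus strand: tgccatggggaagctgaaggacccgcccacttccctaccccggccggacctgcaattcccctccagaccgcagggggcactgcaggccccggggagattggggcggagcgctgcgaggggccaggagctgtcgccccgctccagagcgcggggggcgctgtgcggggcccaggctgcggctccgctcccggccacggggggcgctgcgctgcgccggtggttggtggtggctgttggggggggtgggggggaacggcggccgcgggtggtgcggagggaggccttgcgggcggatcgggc
Counted from the annotated start, the KDM4B window holds 1 palindrome at position −241 and second cores at −224 and −77. The KDM3A window holds 1 second core at −26. The KDM4C window holds 2 palindromes, at −63 and −31, and a second core at −96. Its start, 6757973, lies inside the deposited span of the gene, which begins at 6720863, where no window was searched. The KDM3B window, with 77% G and C, holds 0 cores. The second KDM3A promoter, not printed, overlaps the first, and its 1 second core, at −116, is the same site. KDM2B, called in sgXIST7 only, had a core in each of its 4 promoters. KDM5A, with the smallest rise, had 1 second core at −154. The second promoters of KDM2A and KDM6B held 0 cores. The first KDM6B start, 7834217, lies before the deposited span of that gene, which begins at 7839906. Whether cores go with the response was not tested.

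**Figure D2:**
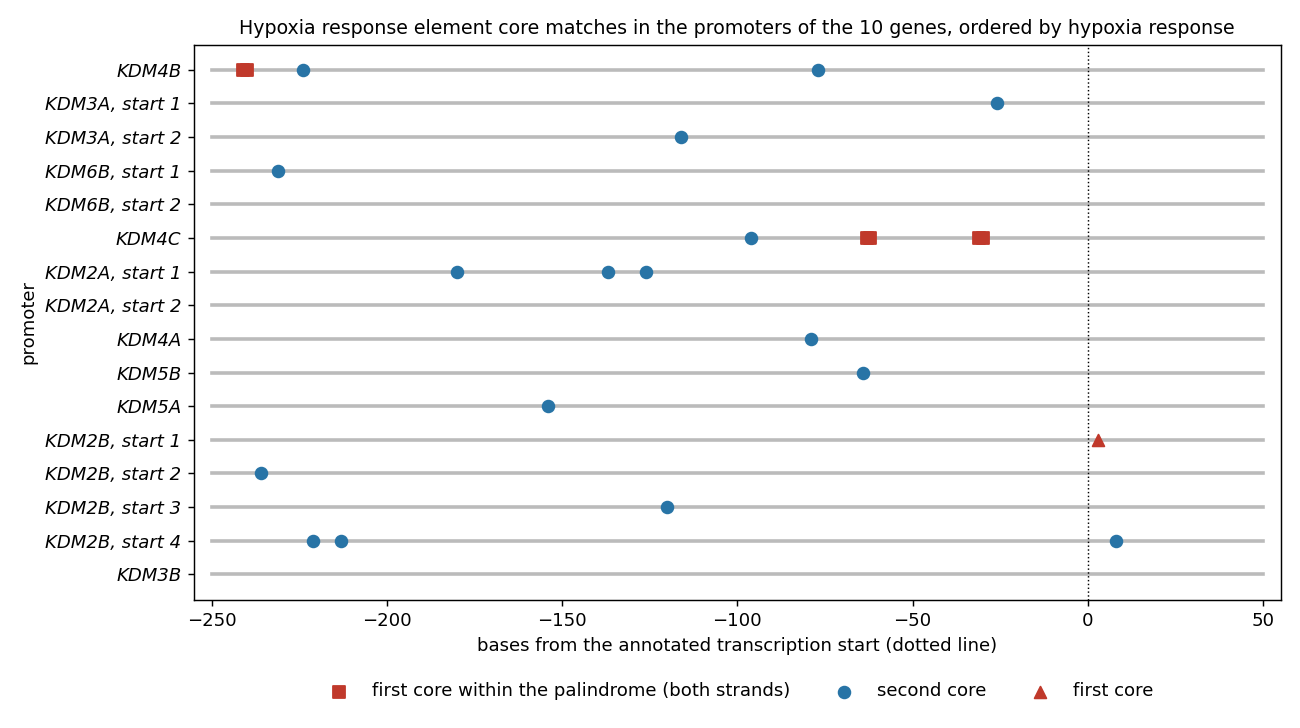
Position of each core match in the 16 promoters, in bases from the annotated start, with genes ordered by their hypoxia response in sgCtl. Circles are second cores, the triangle a first core, and squares first cores within the palindrome, which appear in KDM4B and KDM4C.

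KDM3A and KDM3B both remove methyl groups from H3K9 and, among the demethylases described here, showed the widest contrast within a subfamily. KDM3A (chr2:86441371-86492716 in the deposited table, plus strand, hg38) had 77.7, 84.9 and 63.9 CPM in normoxia and 541, 640 and 511 CPM in hypoxia in sgCtl. It had 75.5, 114 and 70.6 CPM in normoxia and 459, 655 and 504 CPM in hypoxia in sgXIST7, and 74.5, 70.4 and 64.1 CPM against 385, 384 and 436 CPM in sgXIST9. Every hypoxia library lay above every normoxia library of any guide. The fold change was 7.48 in sgCtl (log2 2.90, SE 0.18, adjusted p = 3.5e-09, edgeR), 6.21 in sgXIST7 (log2 2.64, SE 0.18, adjusted p = 4.6e-09, edgeR) and 5.76 in sgXIST9 (log2 2.53, SE 0.18, adjusted p = 9.5e-09, edgeR). In sgCtl, 2.83% of tested genes had a larger log2 fold change. KDM3B (chr5:138352685-138437027, plus strand) stayed between 101 and 135 CPM in all 18 libraries. Its log2 fold change was −0.10 in sgCtl (95% limits −0.29 to 0.09), −0.07 in sgXIST7 (−0.27 to 0.12) and −0.02 in sgXIST9 (−0.21 to 0.18), with adjusted p = 0.42, 0.53 and 0.90 (edgeR). In sgCtl the 3 hypoxia libraries, with 108, 119 and 123 CPM, lay below the normoxia libraries, the lowest of which had 124 CPM.

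KDM4A, KDM4B and KDM4C, which demethylate the trimethyl forms of H3K9 and H3K36, rose with each guide. Their relative KDM4D, described with the other JmjC proteins, had few counts and fell. KDM4B (chr19:4969113-5153597, plus strand) had the largest fold change of the 10 genes with each guide. In sgXIST7 this rested on replicate 3, and without replicate 3 of all groups KDM4B was at log2 2.40 there, below KDM3A (2.56) and KDM4C (2.51). In sgCtl it had 11.1, 11.7 and 10.4 CPM in normoxia and 83.9, 88.9 and 113 CPM in hypoxia. In sgXIST7 it had 14.6, 25.7 and 15.6 CPM in normoxia and 94.5, 116 and 160 CPM in hypoxia, and in sgXIST9 12.2, 14.1 and 13.4 against 81.4, 85.8 and 114 CPM. Every hypoxia library lay above every normoxia library of any guide, and replicate 3 was the highest hypoxia library in each. These are fold changes of 8.62 (log2 3.11, SE 0.23, adjusted p = 2.2e-08, edgeR), 6.64 (log2 2.73, SE 0.22, adjusted p = 2.6e-08, edgeR) and 7.08 (log2 2.82, SE 0.23, adjusted p = 3.0e-08, edgeR). In sgCtl, 2.48% of tested genes had a larger log2 fold change.

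KDM4C (chr9:6720863-7175648, plus strand) rose from 50.2, 50 and 45 CPM to 164, 167 and 239 CPM in sgCtl, a fold change of 3.92 (log2 1.97, SE 0.17, adjusted p = 1.4e-07, edgeR). In sgXIST7 it rose from 60.8, 69.8 and 64.6 CPM to 306, 434 and 427 CPM, a fold change of 5.98 (log2 2.58, SE 0.18, adjusted p = 4.4e-09, edgeR). In sgXIST9 it rose from 61.3, 60.6 and 57.7 CPM to 219, 189 and 288 CPM, a fold change of 3.87 (log2 1.95, SE 0.17, adjusted p = 9.5e-08, edgeR). In hypoxia the sgXIST7 libraries lay above the libraries of both other guides. KDM4A (chr1:43650149-43705518, plus strand) rose less, by log2 fold changes of 1.03 in sgCtl (SE 0.10), 0.80 in sgXIST7 (SE 0.10) and 0.97 in sgXIST9 (SE 0.10), with adjusted p = 5.4e-07, 4.7e-06 and 7.6e-07 (edgeR). It had 51.3 to 56.6 CPM in normoxia and 105 to 121 CPM in hypoxia in sgCtl. Its exons overlap the antisense gene KDM4A-AS1 over 136 bp, and that gene had 16 to 56 counts per library beside 732 to 2217 for KDM4A.

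KDM2A and KDM2B are H3K36 demethylases with a CXXC zinc finger that binds unmethylated CpG, and KDM2A rose with each guide while KDM2B passed in sgXIST7 and not in sgCtl or sgXIST9, although the difference between guides did not pass its own test. KDM2A (chr11:67119263-67258079, plus strand) had 99, 110 and 109 CPM in normoxia and 263, 292 and 269 CPM in hypoxia in sgCtl. The log2 fold changes were 1.38 in sgCtl (SE 0.11, adjusted p = 3.1e-08, edgeR), 1.22 in sgXIST7 (SE 0.10, adjusted p = 4.8e-08, edgeR) and 1.15 in sgXIST9 (SE 0.10, adjusted p = 1.3e-07, edgeR). KDM2B (chr12:121429096-121581023, minus strand), which also recruits the variant Polycomb complex PRC1.1, had 47, 45.5 and 47.6 CPM in normoxia and 48.3, 42.7 and 71.6 CPM in hypoxia in sgCtl. Replicate 3 was the highest hypoxia library there and replicate 2 the lowest of all 6. In sgXIST9 KDM2B had 63.4, 57.1 and 57.9 CPM in normoxia and 65.5, 56.8 and 97.6 CPM in hypoxia, so the groups overlapped for both guides. The log2 fold change was 0.21 in sgCtl (SE 0.20, adjusted p = 0.40, edgeR) and 0.30 in sgXIST9 (SE 0.20, adjusted p = 0.22, edgeR), and in sgCtl it was −0.03 without hypoxia replicate 3. In sgXIST7, KDM2B rose from 61.7, 63.1 and 65.7 CPM to 100, 138 and 159 CPM without overlap (log2 1.06, SE 0.20, adjusted p = 2.4e-04, edgeR).

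The H3K4 demethylases KDM5A and KDM5B rose with each guide by smaller amounts. KDM5B (chr1:202724497-202809470, minus strand) had 143, 158 and 156 CPM in normoxia and 262, 326 and 264 CPM in hypoxia in sgCtl. It had 102, 128 and 109 CPM against 247, 280 and 244 CPM in sgXIST7, and 95.7, 104 and 111 CPM against 243, 258 and 228 CPM in sgXIST9. The normoxia libraries of both sgXIST guides lay below those of sgCtl, while in hypoxia the sgXIST7 libraries overlapped those of sgCtl and the sgXIST9 libraries lay below them. The log2 fold changes were 0.90 (SE 0.11, adjusted p = 6.6e-06, edgeR), 1.19 (SE 0.11, adjusted p = 1.8e-07, edgeR) and 1.23 (SE 0.11, adjusted p = 1.6e-07, edgeR). KDM5A (chr12:280057-389320, minus strand) had the smallest rise, of 0.39, 0.50 and 0.51 on the log2 scale (SE 0.09 each, adjusted p = 0.0021, 1.8e-04 and 1.8e-04, edgeR). In sgCtl it had 85 to 99.2 CPM in normoxia and 109 to 124 CPM in hypoxia. Its call in sgCtl was lost without normoxia replicate 1 or 3 or hypoxia replicate 1, with adjusted p = 0.013, 0.016 and 0.011 (edgeR). It was also lost in a fit of only the groups compared (0.022), with no filter beyond 1 count (0.012) and without replicate 3 of all groups (0.011), each an adjusted p of edgeR.

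KDM6B (chr17:7839906-7854790, plus strand), which removes H3K27 methylation laid down by Polycomb, was the least abundant of the 10 genes, with 55 to 676 counts per library. It had 5.1, 7.73 and 3.9 CPM in normoxia and 18.1, 28.9 and 18 CPM in hypoxia in sgCtl. The values were 3.59, 13.7 and 4.18 against 16.1, 30.6 and 24.3 CPM in sgXIST7, and 3.88, 4.94 and 3.21 against 11.8, 15.1 and 14.1 CPM in sgXIST9. Replicate 2 was the highest library in each of the 6 groups. The log2 fold changes were 1.97 (SE 0.42, adjusted p = 8.3e-04, edgeR), 1.74 (SE 0.40, adjusted p = 0.0013, edgeR) and 1.77 (SE 0.42, adjusted p = 0.0018, edgeR). In sgXIST7 the log2 fold change was 2.60 without normoxia replicate 2, and in sgXIST9 the call was lost without normoxia replicate 3 (log2 1.63, adjusted p = 0.011, edgeR). With the fit restricted to the 2 sgXIST7 groups, the call there was lost (adjusted p = 0.015, edgeR). Without replicate 3 of all groups, KDM6B did not pass with any guide (adjusted p = 0.035, 0.066 and 0.059, edgeR).

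**Figure D3:**
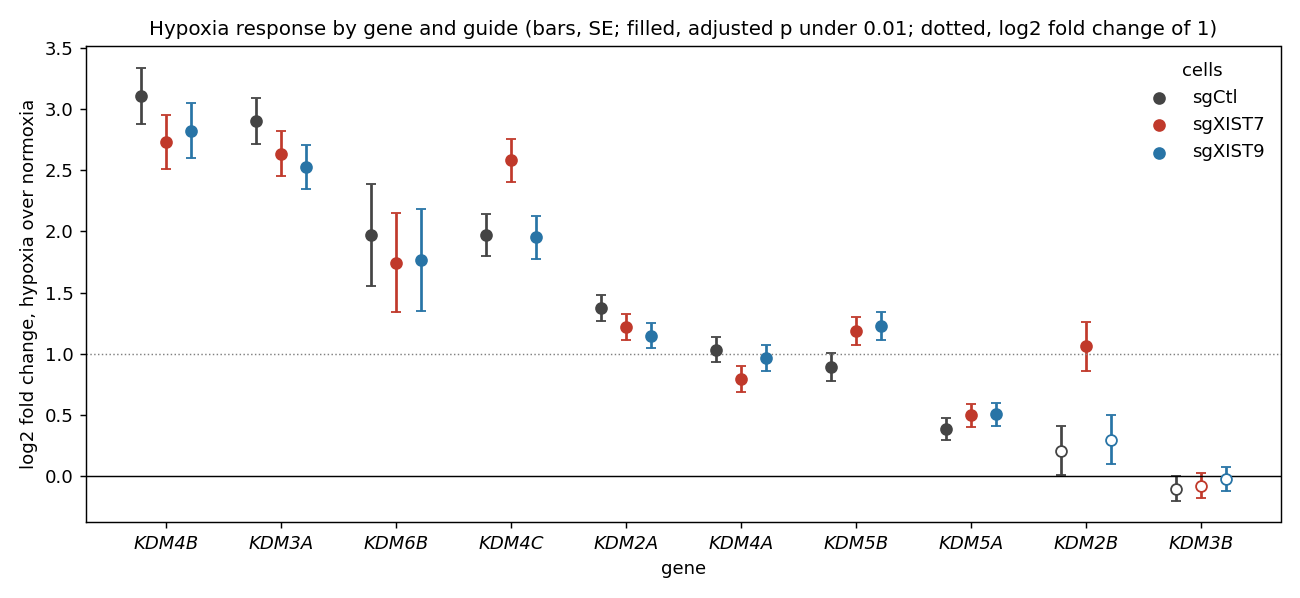
Log2 fold change of each gene in hypoxia over normoxia, by guide, with SE. Filled points have an adjusted p under 0.01. KDM4B and KDM3A lie highest in sgCtl, at 3.11 and 2.90, KDM3B lies between −0.10 and −0.02 with the 3 guides, and KDM2B is filled in sgXIST7 only.

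Per kilobase of exon, the order of the genes differed between the oxygen conditions. RPKM was computed from the deposited gene lengths, which cover all annotated exons of a gene. In sgCtl in normoxia KDM3B was highest, with 18.6 RPKM, followed by KDM3A (16.1), KDM5B (14.6), KDM2A (13.7), KDM4A (12.2), KDM5A (8.48), KDM2B (8.42), KDM4C (6.26), KDM4B (1.51) and KDM6B (0.832). The libraries of neighbours overlapped for KDM3A with KDM5B, KDM5B with KDM2A, and KDM5A with KDM2B. In sgCtl in hypoxia KDM3A was highest, with 120 RPKM, followed by KDM2A (35.5), KDM5B (27.2), KDM4A (25.0), KDM4C (24.6), KDM3B (17.3), KDM4B (12.97), KDM5A (11.1), KDM2B (9.78) and KDM6B (3.23). Here the neighbours KDM5B and KDM4A, KDM4A and KDM4C, KDM4B and KDM5A, and KDM5A and KDM2B overlapped. KDM3A was the highest of the 10 genes in hypoxia also in sgXIST7 (115 RPKM) and sgXIST9 (85.6 RPKM), and KDM6B the lowest in all 6 groups.

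Among the demethylases described here, the make-up of the subfamilies shifted accordingly. Shares and sums count only these genes and leave out relatives such as KDM4D, KDM5C and KDM6A, so they do not describe whole subfamilies. KDM5C had 6295 to 14033 counts per library in hypoxia, while KDM5B had at most 6562 in any library. KDM3A was 46.3% ± 3.45 (SD, n = 3) of the summed RPKM of KDM3A and KDM3B in sgCtl in normoxia and 87.3% ± 1.52 (SD, n = 3) in hypoxia, and in hypoxia sgXIST7 had 86.6% ± 1.67 and sgXIST9 83.8% ± 1.24 (SD, n = 3 each). Within the KDM4 subfamily in sgCtl, KDM4B went from 7.55% ± 0.321 to 20.7% ± 0.282, KDM4C from 31.4% ± 1.99 to 39.0% ± 2.73 and KDM4A from 61.1% ± 2.28 to 40.2% ± 2.90 (SD, n = 3 each). In sgXIST7 in hypoxia, KDM4C made up 57.6% ± 3.88 (SD, n = 3) and KDM4A 23.3% ± 2.92 (SD, n = 3) of the 3 genes. For both shares, the sgXIST7 libraries did not overlap those of sgCtl. KDM2B was 21.5% ± 5.13 (SD, n = 3) of the KDM2 pair in sgCtl in hypoxia, from 38.2% ± 1.59 in normoxia, whereas in sgXIST7 it was 37.2% ± 2.33 in hypoxia and 40.1% ± 2.06 in normoxia. The summed RPKM of the 3 KDM4 genes was 19.9 ± 0.653 in sgCtl in normoxia and 62.5 ± 9.46 in hypoxia, and that of the KDM5 pair 23.1 ± 1.27 and 38.2 ± 3.85 (SD, n = 3 each).

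**Figure D4:**
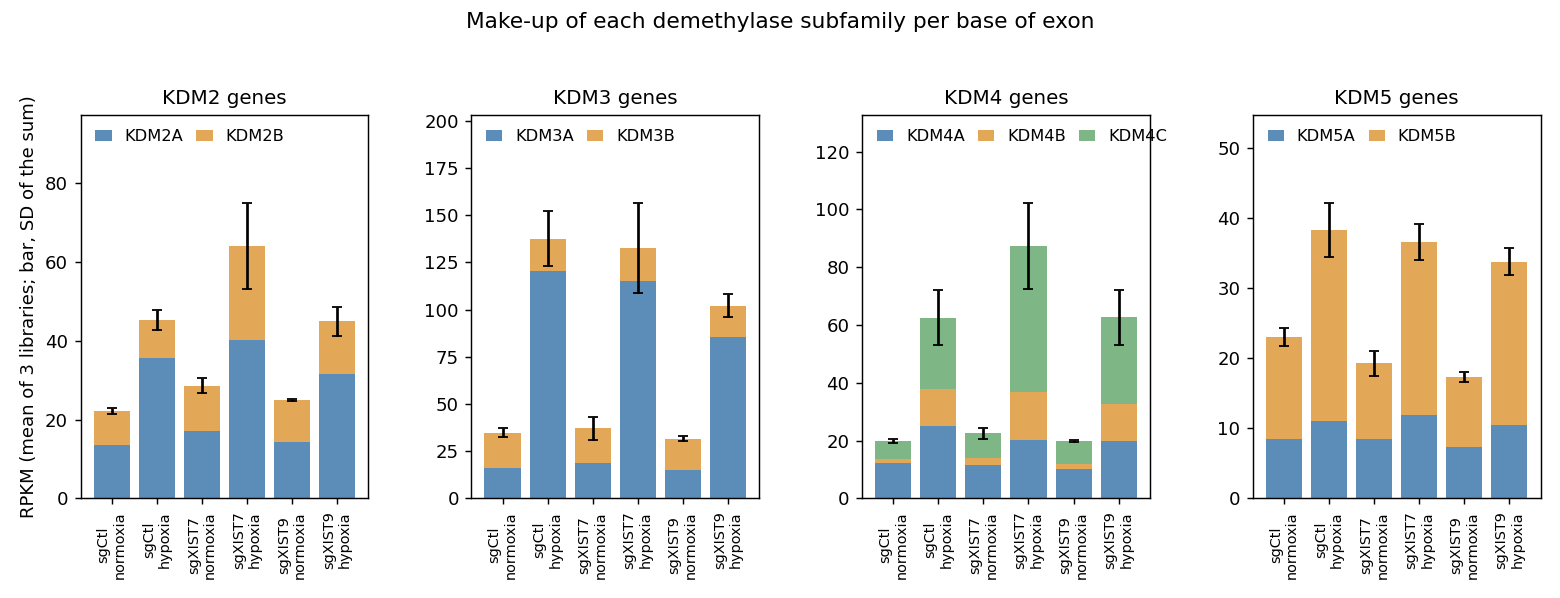
Stacked mean RPKM of the demethylases described here, by group, with the SD of the sum over 3 libraries. Subfamilies with more than 1 of these genes are shown, and relatives such as KDM4D, KDM5C and KDM6A are left out. KDM3A makes up 87.3% of the KDM3 bar in sgCtl in hypoxia, and KDM4C 57.6% of the KDM4 bar in sgXIST7 in hypoxia.

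The genes differed in how far replicate 3 lay from the other hypoxia libraries. KDM2B in replicate 3 was 1.57, 1.34 and 1.60 times the mean of replicates 1 and 2 in sgCtl, sgXIST7 and sgXIST9. KDM4B was 1.31, 1.52 and 1.36 times that mean, and KDM4C 1.45, 1.15 and 1.41 times. KDM5A (0.883 to 0.928 times) and KDM5B (0.898 to 0.924 times) were below it with each guide. Over all alternatives run, including those without these libraries, the lowest log2 fold change over all alternatives in hypoxia was 2.40 for KDM4B and 1.72 for KDM4C.

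Differences between guides were fewer. Comparing each sgXIST guide with sgCtl at the same oxygen asks whether loss of the targeted transcript goes with other demethylase levels. In normoxia, 0 of the 10 genes passed in sgXIST7, where 7.39% of all genes rose and 6.1% fell. An unadjusted p under 0.05 was found for 5 of them, 2 passed with DESeq2, and KDM5B was nearest to the threshold (log2 −0.43, SE 0.11, adjusted p = 0.0101, edgeR). Without sgXIST7 normoxia replicate 2, KDM5B passed. For this comparison the replicate numbers were taken to pair the libraries. With the replicate as a block, KDM5B passed (log2 −0.44, adjusted p = 0.0017, edgeR). With the block in a fit of only these 2 groups, KDM2A (log2 0.34, adjusted p = 7.7e-05, edgeR), KDM2B (log2 0.46, adjusted p = 1.1e-05, edgeR), KDM4B (log2 0.72, adjusted p = 3.1e-04, edgeR) and KDM4C (log2 0.44, adjusted p = 3.3e-05, edgeR) were higher as well. Of these, KDM2B and KDM4C also passed in that fit without the block (adjusted p = 0.0016 and 0.0067, edgeR). In sgXIST9 in normoxia, KDM5B fell (log2 −0.56, SE 0.11, adjusted p = 0.0016, edgeR) and 0 genes rose, where 6.6% of all genes fell and 6.51% rose. All 6 sgXIST libraries, with 95.7 to 128 CPM, lay below the 3 sgCtl libraries, with 143 to 158 CPM. The call in sgXIST9 was lost without sgXIST9 normoxia replicate 1 (adjusted p = 0.014, edgeR), and without replicate 3 of all groups the adjusted p was 0.0106 (edgeR).

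In hypoxia, KDM2B and KDM4C were higher in sgXIST7 than in sgCtl. The log2 fold change was 1.29 for KDM2B (SE 0.20, adjusted p = 1.0e-04, edgeR) and 1.03 for KDM4C (SE 0.17, adjusted p = 1.4e-04, edgeR), while 0 of the 10 genes fell, where 13.9% of all genes rose and 13.7% fell. The sgXIST7 libraries did not overlap the sgCtl libraries for either gene. Without replicate 3 of all groups both were called, and without replicate 2 of all groups neither was (adjusted p = 0.014 and 0.018, edgeR). In sgXIST9 in hypoxia 0 genes passed, where 9.65% of all genes rose and 8.24% fell, although 3 had an unadjusted p under 0.05 and 1 passed with DESeq2. KDM4A was lower there (log2 −0.33, SE 0.10, adjusted p = 0.022, edgeR). The numbers were again taken to pair the libraries, and with the replicate as a block KDM4A passed (log2 −0.33, adjusted p = 0.0085, edgeR). It did not pass with the block in a fit of only these 2 groups (adjusted p = 0.030, edgeR). Deviations from group means correlated more between sgCtl replicate 1 and sgXIST9 replicate 2 (r = 0.283) than between replicate 1 of both (0.197). Without sgXIST7 hypoxia replicate 3, KDM4A was also lower in sgXIST7 (log2 −0.43, adjusted p = 0.0042, edgeR, against −0.31 and 0.021 with it). It did not pass without replicate 3 (log2 −0.36, adjusted p = 0.017, edgeR) or replicate 2 of all groups (log2 −0.27, adjusted p = 0.18, edgeR). Without sgCtl hypoxia replicate 3, KDM2B was higher in sgXIST9 (log2 0.68, adjusted p = 0.0099, edgeR, against 0.44 and 0.11 with it). KDM2B did not pass there without sgXIST9 hypoxia replicate 3 (log2 0.17, adjusted p = 0.55, edgeR) or without replicate 3 of all groups (log2 0.43, adjusted p = 0.042, edgeR). The fibroblast markers given above differed between the guides in the same comparisons. The summed level of the 10 ovarian or epithelial markers did so too, at 460 to 518 CPM in sgXIST7 and 411 to 434 CPM in sgXIST9 against 297 to 348 CPM in sgCtl in hypoxia, with 3 of 6 tested markers risen and 0 fallen for each sgXIST guide. The part of these markers in the differences was not tested. The sgCtl libraries are shared by the comparisons of both guides. With 3 libraries per group, 0.1 is the smallest p that an exact permutation test (two-sided) allows, so no single gene could pass on that test.

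Whether the hypoxia response itself differed between guides was tested with interaction contrasts. Of the 10 genes, 0 passed for sgXIST7 minus sgCtl, where 2.17% of all genes passed in either direction, 0 for sgXIST9 minus sgCtl (1.26%) and 0 for sgXIST7 minus sgXIST9 (0.174%), with 2, 0 and 2 at an unadjusted p under 0.05. DESeq2 gave no call in these contrasts either. For sgXIST7 minus sgCtl, the difference in log2 fold change was 0.85 for KDM2B (SE 0.29, adjusted p = 0.069, edgeR) and 0.61 for KDM4C (SE 0.24, adjusted p = 0.11, edgeR). Without sgCtl hypoxia replicate 3 the difference for KDM2B was 1.102 and passed (adjusted p = 0.0055, edgeR), as it did without replicate 3 of all groups (0.97, adjusted p = 0.0080, edgeR). It did not pass without replicate 2 of all groups (0.68, adjusted p = 0.42, edgeR). For KDM5B the differences were 0.29 in sgXIST7 (SE 0.16, adjusted p = 0.25, edgeR) and 0.33 in sgXIST9 (SE 0.16, adjusted p = 0.24, edgeR).

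Across the 18 libraries, log2 CPM of the 8 genes that rose with each guide correlated with one another at Pearson's r from 0.84 (KDM4C with KDM5B) to 0.99 (KDM2A with KDM4B). KDM3B had r from −0.30 to −0.05 with the other 9, and KDM2B had 0.73 with KDM4C and 0.31 with KDM5B. These libraries form an oxygen split that many genes share, so the values are descriptions. Among all tested genes, those nearest to KDM3A were PDK1 (r = 0.990), ZNF654 (0.988) and AK4 (0.988), and those nearest to KDM4B were PFKFB4 (0.993), GYS1 (0.992) and ANKRD37 (0.991). PDK1 encodes a kinase that inhibits pyruvate dehydrogenase, PFKFB4 a regulator of glycolysis and GYS1 glycogen synthase. Nearest to KDM2A were SLC2A1, the glucose transporter GLUT1 (0.994), KDM4B (0.988) and TSC22D3 (0.988). The other genes had FANK1, DOK3 and ZNF667 (KDM4C, 0.992 to 0.994), DYRK1B, FAM220A and CXCR4 (KDM4A, 0.971 to 0.975), LAG3, TEP1 and TBCEL (KDM5A, 0.974 to 0.978), ABCC11, GABARAPL1 and SCN3B (KDM5B, 0.979 to 0.990) and RTL5, TM9SF4 and CLSTN1 (KDM6B, 0.967 to 0.978).

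The other JmjC proteins moved in both directions. Beside the counts of each list stand the shares of all tested genes given above, of which 18.8%, 23.5% and 23.1% rose and 18.8%, 23.2% and 19% fell in hypoxia in sgCtl, sgXIST7 and sgXIST9. Of 20 listed, 19 were tested, of which 7 rose and 4 fell in sgCtl, 8 rose and 3 fell in sgXIST7, and 6 rose and 3 fell in sgXIST9, with medians of 0.01, 0.15 and 0.16 on the log2 scale. KDM7A, a demethylase of H3K9 and H3K27, rose by 2.84, 5.05 and 3.28 on the log2 scale with the 3 guides (edgeR, adjusted p = 2.8e-05, 7.9e-08 and 4.2e-06). KDM4D, the intronless relative of the KDM4 genes above, fell by 2.21, 2.59 and 1.43 on the log2 scale (adjusted p = 7.0e-06, 7.6e-07 and 2.0e-04, edgeR), opposite to KDM4A, KDM4B and KDM4C. KDM4D had few counts, 56 to 101 per library in normoxia and 8 to 32 in hypoxia. JMJD6 rose by log2 fold changes of 1.47, 1.32 and 0.66, and JARID2, a JmjC protein of the Polycomb complex PRC2 that lacks demethylase activity, by 1.28, 2.13 and 1.40. KDM5C, an X-linked relative of KDM5A and KDM5B named here with its values already known, rose by 1.34, 1.75 and 1.36. HR, a corepressor with a JmjC domain, also passed with each guide but had at most 6 counts in any normoxia library, and no fold is given.

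Demethylases that use FAD and not 2-oxoglutarate, with their CoREST partners, also split. Of 8 genes, 3 rose and 2 fell in sgCtl, 3 rose and 3 fell in sgXIST7, and 3 rose and 2 fell in sgXIST9, with 18.8% to 23.5% of all genes risen and 18.8% to 23.2% fallen. RCOR2, a CoREST subunit, rose by log2 fold changes of 1.31, 1.04 and 1.42, and PHF21A, a reader of unmethylated H3K4, by 0.92, 1.46 and 1.54. HDAC1, a deacetylase of the complex beside HDAC2, fell by 0.90 in sgCtl, and RCOR3 fell by 0.62 in sgXIST7. RCOR1 rose in sgXIST7 (log2 1.25), and KDM1B (LSD2) rose in sgCtl (log2 0.71) and sgXIST9 (log2 0.66). KDM1A (LSD1) fell by 0.70, 0.56 and 0.52 on the log2 scale (adjusted p = 2.4e-05, 1.5e-04 and 3.6e-04, edgeR). The list of PRC1.1 partners of KDM2B had 8 tested genes of 9, with 3 risen and 1 fallen in sgCtl, 6 and 1 in sgXIST7, and 4 and 1 in sgXIST9, against the same shares of all genes. RYBP, which stimulates the ubiquitin ligase of the complex, rose by log2 fold changes of 1.15, 2.34 and 1.47, BCOR rose by 0.96 in sgXIST7 and 0.64 in sgXIST9, PCGF1 rose by 0.93 in sgXIST7, RNF2 and SKP1 rose in sgCtl (log2 0.43 and 0.41), RNF2 rose in sgXIST9 (log2 0.41), and USP7, a deubiquitinase, fell by 0.49, 0.65 and 0.77 on the log2 scale.

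Of the methyltransferases that write the same marks, 0 passed as higher in sgCtl, and EZH1 did so in sgXIST7 and sgXIST9, where 18.8% to 23.5% of all genes rose. These lists hold 2 to 6 genes each. Of 6 H3K4 methyltransferases, 0 passed with any guide, and their medians were 0.08, −0.29 and 0.07 on the log2 scale. KMT2C, named here with its values known, had log2 fold changes of 0.70, 0.72 and 0.84, with adjusted p = 0.033, 0.025 and 0.011 (edgeR). Of 6 H3K9 methyltransferases, 0 rose, and 3 fell in sgCtl, 4 in sgXIST7 and 4 in sgXIST9, where 18.8%, 23.2% and 19% of all genes fell. SETDB2 fell by 1.11 in sgCtl, and SUV39H2 fell by 0.84 in sgXIST7 and 0.83 in sgXIST9. SETDB2 had only 30 to 61 counts per library in normoxia and 11 to 48 in hypoxia. SETDB1 fell by 0.40, 0.54 and 0.41 and EHMT1, also known as GLP, by 0.69, 0.77 and 0.59 on the log2 scale in sgCtl, sgXIST7 and sgXIST9. SUV39H1, which trimethylates H3K9 in heterochromatin, fell by 2.17 in sgXIST7 and 1.97 in sgXIST9. In sgCtl it had a log2 fold change of −0.77 (adjusted p = 0.026, edgeR). SUV39H1 had 79 to 140 counts per library in normoxia and 12 to 87 in hypoxia. Of 5 H3K36 methyltransferases, 0 rose and 2 fell with each guide. These were NSD1, with falls of 0.67, 0.63 and 0.55, and NSD2, with falls of 0.91, 1.12 and 1.36 on the log2 scale. Of the H3K27 methyltransferases EZH1 and EZH2, 0 passed in sgCtl, while EZH1 rose (log2 0.58 and 0.73) and EZH2 fell (log2 −0.65 and −0.67) in sgXIST7 and sgXIST9.

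JmjC enzymes depend on 2-oxoglutarate and are inhibited by succinate, fumarate and 2-hydroxyglutarate, and of 16 genes of this metabolism 1 rose and 7 fell in sgCtl, 2 rose and 7 fell in sgXIST7, and 1 rose and 7 fell in sgXIST9. Of all tested genes, 18.8% to 23.5% rose and 18.8% to 23.2% fell. The medians of the 16 were −0.34, −0.33 and −0.43 on the log2 scale. IDH2, a mitochondrial source of 2-oxoglutarate, fell by 1.98, 1.53 and 1.15 and IDH3B fell by 0.95, 0.89 and 1.14 on the log2 scale. FH, which removes fumarate, fell with log2 fold changes of −1.203, −1.502 and −1.681. LDHA, the lactate dehydrogenase subunit that can also reduce 2-oxoglutarate, rose by log2 fold changes of 1.57, 1.46 and 1.54. No metabolite was measured. Among 15 hypoxia reference genes, 13, 14 and 14 rose and 0 fell, with median log2 fold changes of 3.64, 3.88 and 3.93.

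**Figure D5:**
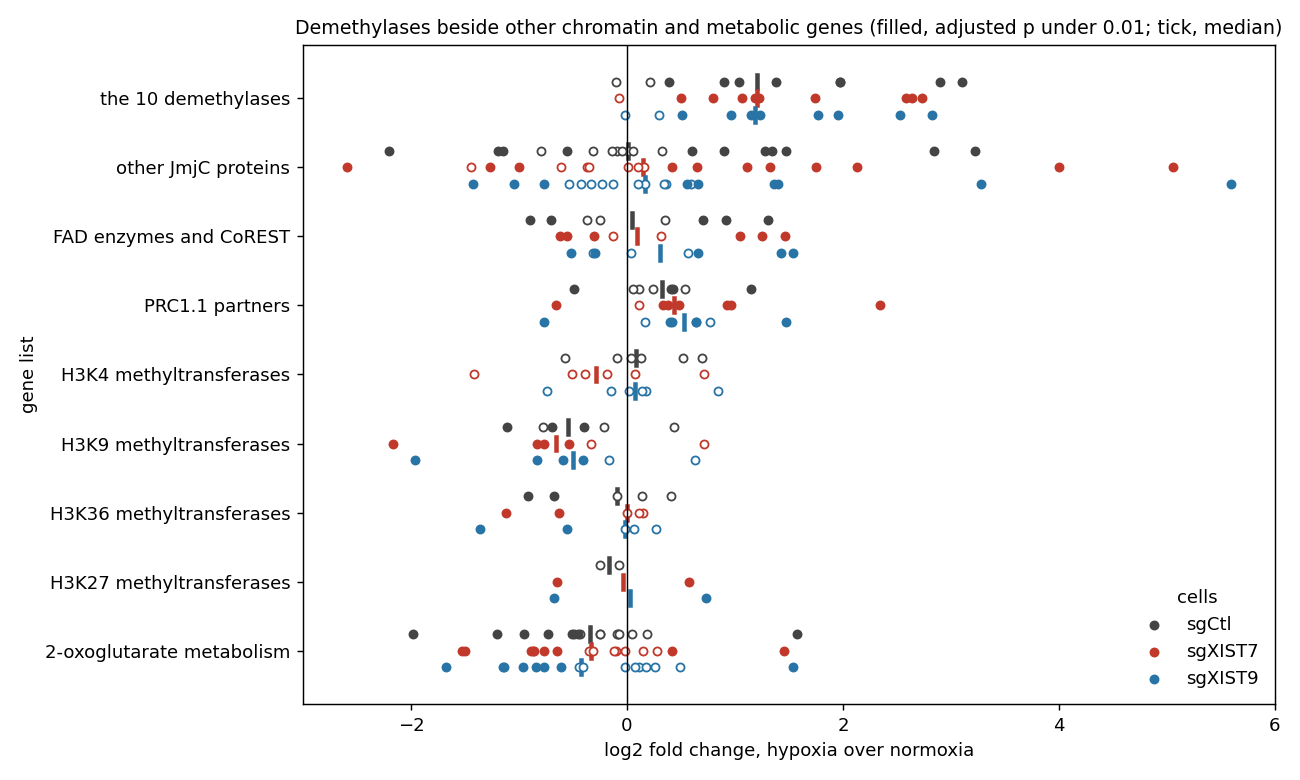
Log2 fold change of the 10 demethylases and of the genes on 8 other lists in hypoxia over normoxia, 1 point per gene and guide, filled at an adjusted p under 0.01, with the median of each list as a tick. HR is drawn among the other JmjC proteins at its fitted values, which rest on few counts and are no bound. The demethylase medians lie at 1.19 to 1.21, those of the H3K9 methyltransferases at −0.65 to −0.50 and those of the metabolic list at −0.43 to −0.33.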

How the data were processed

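RNA-seq of OVCAR3-KRAB clonal cells (18 libraries, 6 groups of 3) was analysed. The authors depleted ribosomal RNA, made stranded paired-end libraries and used Trimmomatic for trimming, FastQC for quality checks, HISAT2 for alignment (hg38) and featureCounts for the counting per gene. Versions, annotation release and the strand setting of the counting are not given in the sources used here. The deposited values are the authors' raw counts per gene, without normalization. The deposited gene length, a column of its own from the authors' counting, was used for RPKM. Of 28279 lines, 2 were broken records with 0 counts and were left out.

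Counts were analysed with edgeR 4.0.16 (limma 3.58.1, R 4.3.3): TMM scaling (factors 0.859 to 1.115), filterByExpr (minimum count 10, minimum total 15), prior count 0.125, robust glmQLFit over 6 groups without other terms, glmQLFTest and Benjamini-Hochberg adjustment over 14938 genes. The common dispersion was 0.0321. The standard error is the absolute log2 fold change divided by the square root of F, and 95% limits are 1.96 standard errors. The scripts were tested on simulated data. CPM uses TMM-scaled library sizes. Total counts of 11794375 to 24906936 set the precision. Correlations used log2 CPM with a prior of 2.

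The 10 genes and the gene lists were chosen with earlier results of these data known. Named were all 10 genes in the hypoxia comparisons and where they changed between guides, at most 4 changed genes per list and hypoxia comparison by size of change, and the 3 nearest genes by correlation. Replicate numbers were taken to pair libraries where deviations from group means correlated above 0.1 in all 3 pairs. This held for sgXIST7 against sgCtl in normoxia (0.148 to 0.379) and sgXIST9 against sgCtl in hypoxia (0.197 to 0.566). It held for no other comparison of 2 groups. The rule did not ask whether libraries of the same number correlated more than those of other numbers. Alternatives were DESeq2 1.42.0, 2 other scalings, 2 other filters, the replicate block, a fit restricted to the groups of a comparison, an adjusted p under 0.05 and left-out libraries. Leaving out replicate 2 of all groups, and the block within the groups compared, were added after seeing the data. Promoters came from RefSeq.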

Additional observations from a re-analysis of the deposited data

How the results depend on the processing

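In all, 974 alternative values were computed. For single genes in single comparisons, 742 kept their direction and side of the threshold, 16 lost the call, 18 gained one and 18 changed sign, and for the numbers of genes called, 163 stayed within 1.5 times. When 1 library at a time was left out, the number of genes called in hypoxia was 7 to 8 in sgCtl, 9 to 9 in sgXIST7 and 7 to 8 in sgXIST9. It was 0 to 1 for each sgXIST guide against sgCtl in normoxia, 2 to 3 for sgXIST7 and 0 to 1 for sgXIST9 in hypoxia, 0 to 1 for the difference in response of sgXIST7 minus sgCtl, and 0 to 0 for the other differences.

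For sgXIST7 in normoxia (0 genes called), an adjusted p under 0.05 gave 3, a fit of only the groups compared 2, DESeq2 2, the replicate block 1, and the replicate block in a fit of only the groups compared 5. For sgXIST9 in normoxia (1), only the groups compared gave 3, and leaving out replicate 3 or replicate 2 of all groups gave 0. For sgXIST7 in hypoxia (2), leaving out replicate 2 of all groups gave 0. For sgXIST9 in hypoxia (0), an adjusted p under 0.05 gave 2, the replicate block 1 and DESeq2 1. Among differences in response, leaving out replicate 3 of all groups gave 1 for sgXIST7 minus sgCtl. In comparisons taken as paired, the block over all groups changed only calls of KDM5B in sgXIST7 in normoxia and KDM4A in sgXIST9 in hypoxia. In the fit of only the groups compared, KDM2B and KDM4C passed without the block in sgXIST7 in normoxia. The block added KDM2A, KDM4B and KDM5B there. Elsewhere the numbers were not taken to pair the libraries, and with the block KDM4A passed in sgXIST7 in hypoxia (adjusted p = 0.0078, edgeR). The causes were not tested.

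No value that changed sign had been called. With 1 library left out, the log2 change in hypoxia was −0.034 to 0.36 for KDM2B in sgCtl, −0.17 to 0.039 for KDM3B in sgXIST7 and −0.029 to 0.0038 in sgXIST9, and the difference in response of sgXIST9 minus sgCtl was −0.17 to 0.34 for KDM2B and −0.20 to 0.18 for KDM4C. Without replicate 3 of all groups these were −0.021 for KDM2B in sgCtl, 0.032 and 0.0012 for KDM3B in sgXIST7 and sgXIST9, and 0.024 for KDM4C in sgXIST9 minus sgCtl, which was 0.0028 without replicate 2 of all groups. With upper-quartile scaling, KDM3B in sgXIST9 was 0.068 and KDM4C in sgXIST9 minus sgCtl 0.035, and with a mean CPM of at least 1 KDM3B in sgXIST9 was 0.0097. Total counts limit KDM6B most, with 55 counts in its lowest library.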
